A study of Mus musculus with 16 samples.

Results

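The genes of tRNA-Cys were followed in small RNA libraries from plasma extracellular vesicles (pEVs) of PS19 and wild-type (WT) mice. All entries of the deposited table whose name begins with tRNA-Cys were taken, which gave 59 entries among 433 tRNA entries and 15159 non-coding RNAs (ncRNAs) in all. The entries were picked by name and not by a measured value, although earlier results of these data were known when the family was chosen. The PS19 group (genotype PS19+/-) held 8 mice heterozygous for a human MAPT transgene with the P301S mutation, driven by the Prnp promoter on a B6;C3 background, and the WT group held 8 littermates without it. Both groups had equal numbers of males and females, were about 9.6 months old, and received no other treatment that the labels or the methods name. The transgene is the only genotype compared, 1 mouse gave 1 library, and the mice are the replicates. pEVs were precipitated from 200 µL plasma, and such precipitates can also carry RNA that is bound to proteins and lipoproteins. The comparison addresses whether circulating vesicles carry RNAs that differ in mice with tau pathology.

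tRNA-Cys reads the cysteine codons of a messenger RNA with the anticodon GCA and is charged with cysteine by its own aminoacyl-tRNA synthetase. In blood and in vesicles, tRNAs are found largely as fragments, such as those left when the anticodon loop is cut. The 5′ fragments of tRNA-Ala and tRNA-Cys that such a cut leaves begin with a run of guanines and are known for lowering translation in stressed cells. In the name tRNA-Cys-GCA-4-10, the letters give the anticodon, the first number the isodecoder and the last the gene copy. Isodecoders share an anticodon and differ elsewhere in the body of the tRNA, whereas copies of 1 isodecoder have the same mature sequence. The names are shortened below to the anticodon and the numbers.

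All 59 entries had the anticodon GCA. They carried 27 isodecoder numbers, from 1 to 27, and 24 of these had a single entry. Isodecoder 4 held 29 entries, isodecoder 3 held 4 and isodecoder 1 held 2. In the RefSeq annotation of GRCm38.p6, whose gene names do not pair with those of the table, 57 genes of tRNA-Cys with this anticodon are placed. Of these, 49 (86.0%) lie on chromosome 6, at chr6:47978997-48363603, with a median gap of 3416.5 bases between neighbours. A further 5 lie on chromosome 11 (chr11:97769829-97988994), 2 on chromosome 9 (chr9:104400120-104404127) and 1 on chromosome 17 (chr17:71599271-71599342). The annotated length was 72 bases for 56 of the genes and 70 for the other. No genomic position is given for single entries, as the annotation does not use their names.

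Summed over all entries, the libraries held between 36220722 and 117583663 assigned reads. A read that several entries list counts once for each in this sum and in the shares of reads below. 1 read corresponded to between 0.389 and 3.83 normalized counts, the deposited unit, which is the count divided by the DESeq2 size factor of the library. A value of 0 allows up to 3 reads, which is between 2.56e-06% and 9.12e-06% of the tRNA reads of a library, a limit that covers counting error alone, because PCR copies of 1 molecule are read as several. Library names of all PS19 mice began with the same letter, which only WT replicates 2 and 4 shared, so an effect of the letter cannot be fully told apart from that of genotype. miRNAs took between 0.0645% (PS19 replicate 4) and 7.51% (WT replicate 2) of the assigned reads. The summed normalized counts of the miRNA markers of other cells overlapped between the groups in each list. The 6 red blood cell miRNAs, all detected, ran from 3532 to 88346 in PS19 (median 64557) and from 34078 to 186707 in WT (median 75848). The 6 platelet and myeloid miRNAs, all detected, ran from 608 to 2820 (median 1892) and from 1633 to 4629 (median 2191), and the 3 neuronal miRNAs, all detected, from 981 to 10017 (median 2703) and from 2206 to 10415 (median 3442). The 2 liver miRNAs that are listed of 3 ran from 8373 to 211497 in PS19 (median 27482) and from 26450 to 385899 in WT (median 105645). Their part in the results below was not tested, and in bulk plasma fewer vesicles from a cell type and less RNA per vesicle cannot be told apart.

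The 59 entries fell into 31 distinct profiles of values. Of these, 25 belonged to a single entry, and the other 6 were shared by 34 entries whose values were identical in all 16 libraries. The largest set held 14 copies of isodecoder 4, among them GCA-4-10. A further 8 entries shared a profile, namely GCA-4-1 to GCA-4-7 and GCA-14-1, and 6 shared another, namely 5 copies of isodecoder 4 and GCA-9-1. In all, 3 sets joined entries with different isodecoder numbers, which the values therefore did not tell apart. The third of these, GCA-23-1 with GCA-26-1, rested on 1 read. The 29 copies of isodecoder 4 were equal in 10 of 16 libraries, and their widest gap was 9 reads, between 103 and 112 in PS19 replicate 1. The 4 copies of isodecoder 3 were equal in 14 libraries and the 2 of isodecoder 1 in 15, with a widest gap of 1 read in each case. When entries within 1 read of each other in every library were joined, 20 sets were left. When entries were joined at a Pearson r above 0.99 over the 16 libraries, 18 sets were left, and the largest held 36 entries of isodecoders 4, 6, 9, 10, 12, 14, 17 and 24. Entries in such a set are not independent measurements, and how a read that fits several of them was counted is not given in the sources used here.

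**Figure D1:**
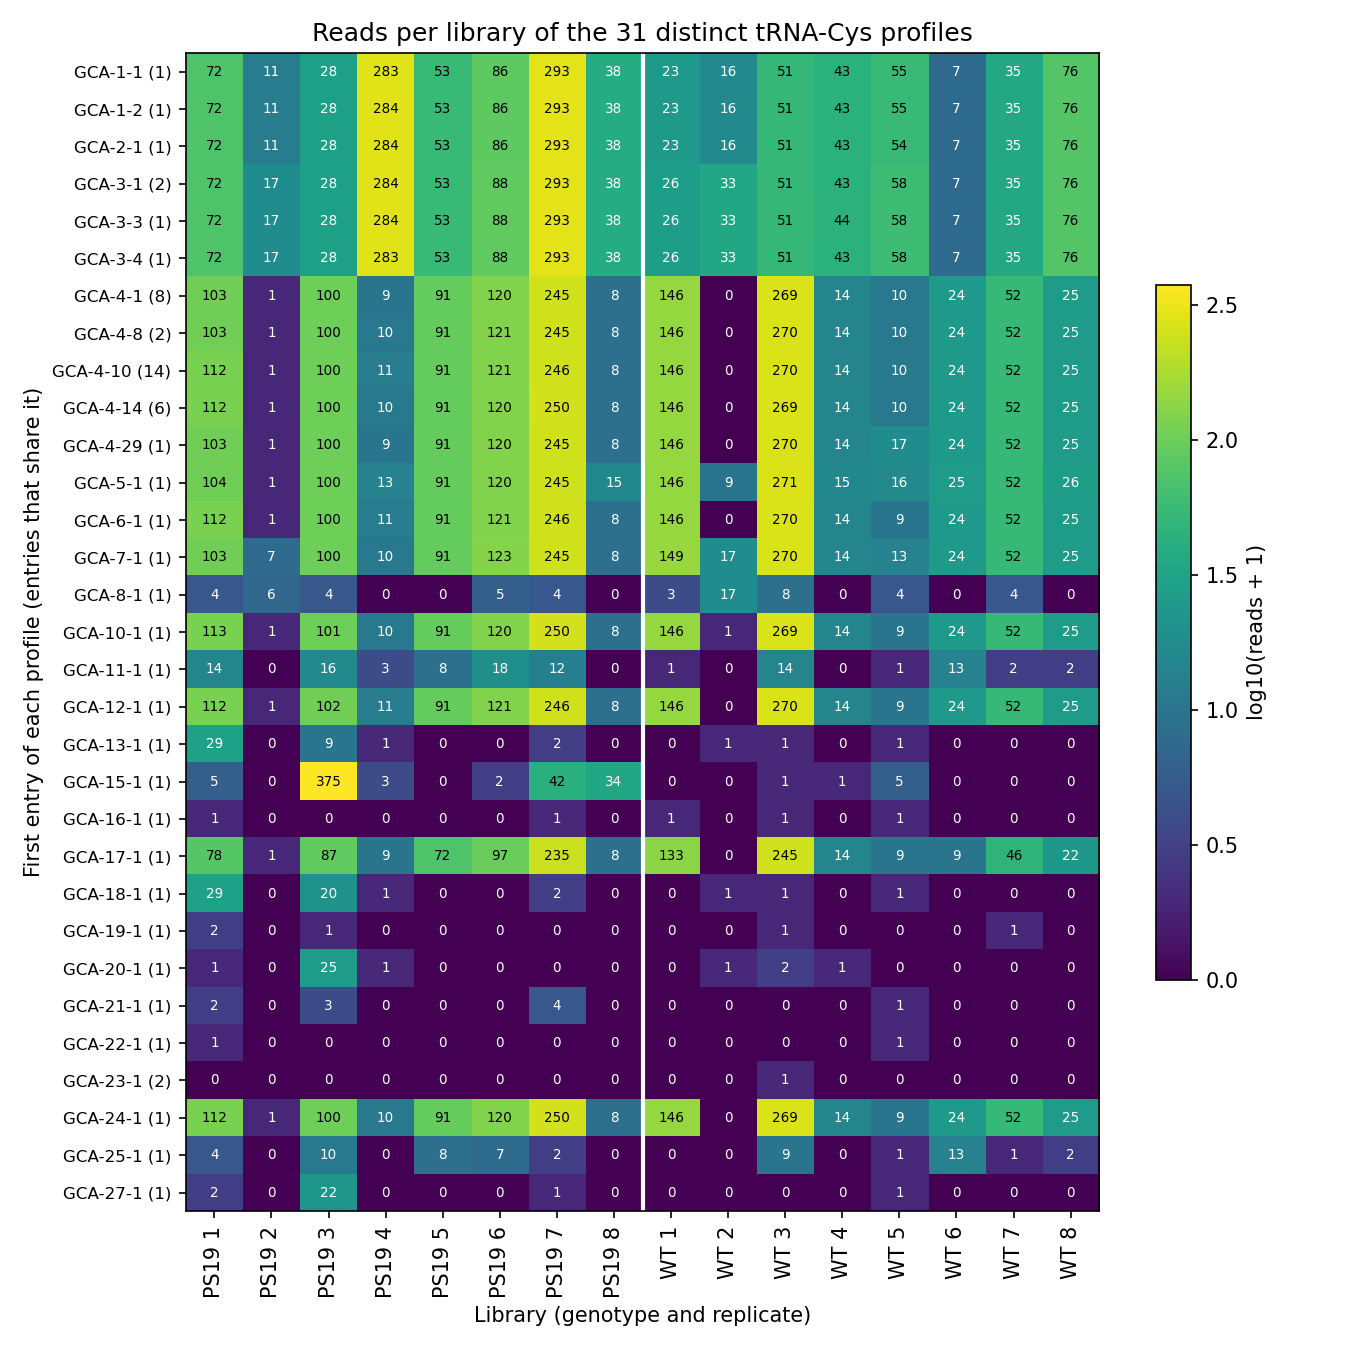
Recovered whole reads in the 16 libraries (columns, PS19 left and WT right of the white line) for the 31 distinct tRNA-Cys profiles (rows, named by their first entry, with the number of entries that share the profile in parentheses). The colour is log10(reads + 1) and the number in each cell is the reads. Isodecoders 1 to 3 form 1 block, isodecoder 4 and its like a second, and GCA-15-1 has 375 reads in PS19 replicate 3.

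tRNA-Cys had the most entries of the 22 amino acid names in the table, ahead of tRNA-Ala with 39, but few of the reads. Summed over its entries it took a median of 24.4 reads in 1000000 tRNA reads (tRNA RPM) over the 16 libraries, which ranked sixth, in a sum that counts a read once for each entry that lists it. By its highest entry it ranked eighth, with a median of 1.08 tRNA RPM and a range of 0.247 to 5.59. That measure counts a tRNA-Cys read once, but its divisor, the summed tRNA reads, counts a read once for each entry that lists it. The sums of tRNA-Glu and tRNA-Gly took medians of 53.1% and 46.7% of the tRNA reads. The median tRNA-Cys entry had 1217 reads over all libraries, against 228.5 for the other tRNA entries and 28 for all ncRNAs. Only 10 of the 59 entries had reads in every library, 10 had reads in fewer than 8 libraries, and 5 had more than 3 reads in no library.

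**Figure D2:**
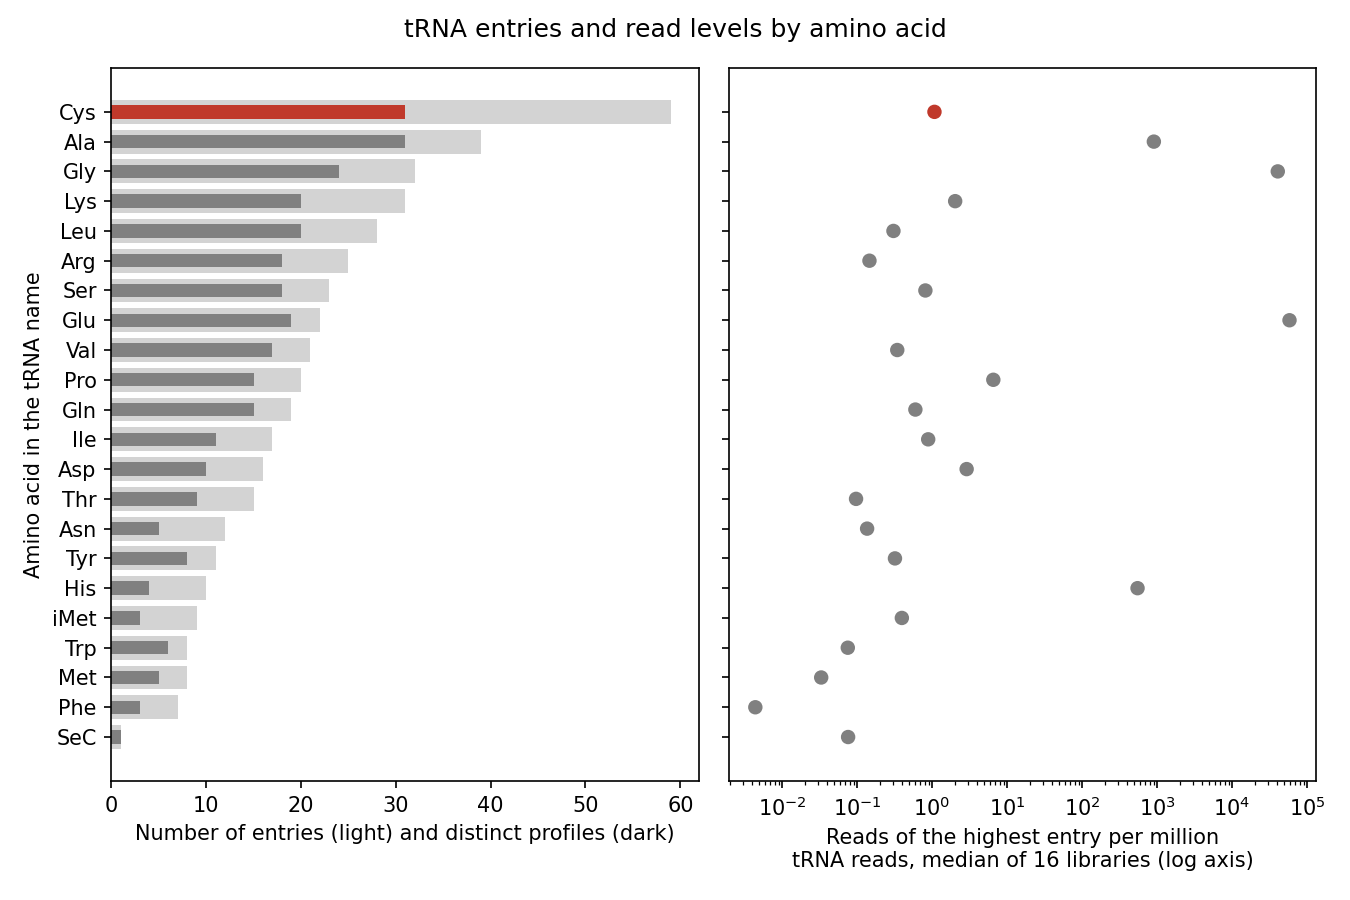
Left, number of tRNA entries (light bars) and of distinct profiles (dark bars) for each amino acid in the tRNA name, with Cys in red. Right, reads of the highest entry of each amino acid in tRNA RPM, as the median of 16 libraries on a log axis. tRNA-Cys leads in entries with 59 and lies at 1.08 on the right.

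The summed tRNA-Cys share was 53.1 ± 49.9 tRNA RPM in PS19 (SD, n = 8), against 28.6 ± 32.7 in WT (SD, n = 8). In PS19 it ran from 2.32 in replicate 2 to 163 in replicate 7, with a median of 49.3. In WT it ran from 6.90 in replicate 2 to 95.4 in replicate 3, with a median of 11.9. The groups overlapped over most of their ranges, and the difference of 24.5 was smaller than the SD within either group. It was 8.86 without PS19 replicate 7 and 34.1 without WT replicate 3.

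Isodecoders 1, 2 and 3 formed the first block of entries. GCA-1-1 had between 11 and 293 reads in PS19, with a median of 62.5, and between 7 and 76 in WT, with a median of 39. The highest libraries were PS19 replicates 7 and 4, with 293 and 283 reads, and the other 6 PS19 libraries, with 11 to 86, had much the same range as the WT libraries. As normalized counts GCA-1-1 was 204 ± 364 in PS19 (SD, n = 8), against 40.1 ± 34.5 in WT (SD, n = 8). PS19 replicate 4 alone stood at 1085, since its size factor was the lowest, and held 55.6% of the normalized counts of the entry. The log2 fold change of PS19 over WT, on the log2(normalized count + 1) scale of the main limma fit, was 1.44 ± 0.767 (SE), which did not reach the raw threshold of 0.05 (limma, raw p = 0.0718; two-sided exact permutation test, p = 0.139). Fold changes of DESeq2 and edgeR come from models of the reads and are not on this scale. When each library was left out in turn, the fold change ranged from 0.89, without PS19 replicate 4, to 1.88, without PS19 replicate 2, and 3 of 16 fits passed the threshold. These were the fits without PS19 replicate 2, with 11 reads, PS19 replicate 8, with 38, or WT replicate 8, with 76, in which all 7 entries of isodecoders 1 to 3 passed. On the recovered reads the raw threshold was passed by GCA-1-1, GCA-1-2 and GCA-2-1 with both count tests, and the log2 fold change of GCA-1-1 was 2.35 with DESeq2 (adjusted p = 0.0960) and 1.69 with edgeR (adjusted p = 0.147), whereas it was 0.52 in the limma fit with the miRNA share as a covariate. GCA-2-1 differed from GCA-1-2 by 1 read in 1 library and had a log2 fold change of 1.44 (limma, raw p = 0.0712; exact permutation test, p = 0.138). GCA-3-1 followed GCA-1-1 over the 16 libraries at a Pearson r of 0.98 and exceeded it most in WT replicate 2, with 33 reads against 16. Its log2 fold change was 1.37 ± 0.728 (SE; limma, raw p = 0.0719; exact permutation test, p = 0.135).

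Isodecoder 4 and the entries like it formed the second block. GCA-4-10 had between 1 and 246 reads in PS19 and between 0 and 270 in WT. It was lowest in replicate 2 of both groups, with 1 and 0 reads, and highest in WT replicate 3, so the ranges of the groups nearly coincided. As normalized counts it was 92.8 ± 74.7 in PS19 (SD, n = 8), with a median of 93.2, and 72.0 ± 97.8 in WT (SD, n = 8), with a median of 28.6. The log2 fold change was 0.88 ± 1.01 (SE; limma, raw p = 0.393; exact permutation test, p = 0.502). It was 0.21 without WT replicate 2 and 1.55 without PS19 replicate 2, the libraries with 0 and 1 reads, and passed in none of the 16 fits that left out 1 library. GCA-10-1 and GCA-12-1, each the only entry of its isodecoder, followed GCA-4-10 to within 4 reads in every library. GCA-5-1 and GCA-7-1 departed from isodecoder 4 in WT replicate 2, with 9 and 17 reads where GCA-4-1 had 0, and in PS19 replicate 2 GCA-7-1 had 7 where GCA-4-1 had 1. The log2 fold change was 0.61 ± 0.890 for GCA-5-1 (SE; limma, raw p = 0.496; exact permutation test, p = 0.585) and 0.65 ± 0.821 for GCA-7-1 (SE; limma, raw p = 0.432; exact permutation test, p = 0.516). With 1 library left out, they ran from 0.21 to 1.31 and from 0.30 to 1.10. GCA-17-1 had fewer reads than GCA-4-1 in 11 of 16 libraries, by up to 25 reads, and equal reads in the other 5. In a limma fit that also held each library's miRNA share on the log2 scale, an alternative chosen after earlier results had been seen, the fold change of GCA-4-10 turned to -0.27.

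The 2 blocks did not follow each other. Over the 16 libraries, the Pearson r between GCA-1-1 and GCA-4-1 was 0.39 on log2(reads + 1), and 0.31 when both were taken in tRNA RPM. The points share library depth, so this is a description only. The log2 ratio of GCA-1-1 to GCA-4-1 (each with 1 read added) ran from -2.61 in WT replicate 1, with 23 and 146 reads, to 4.83 in PS19 replicate 4, with 283 and 9 reads. GCA-1-1 was the higher of the pair in 4 of 8 PS19 and in 4 of 8 WT libraries. Which isodecoder led therefore differed between mice within both genotypes.

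**Figure D3:**
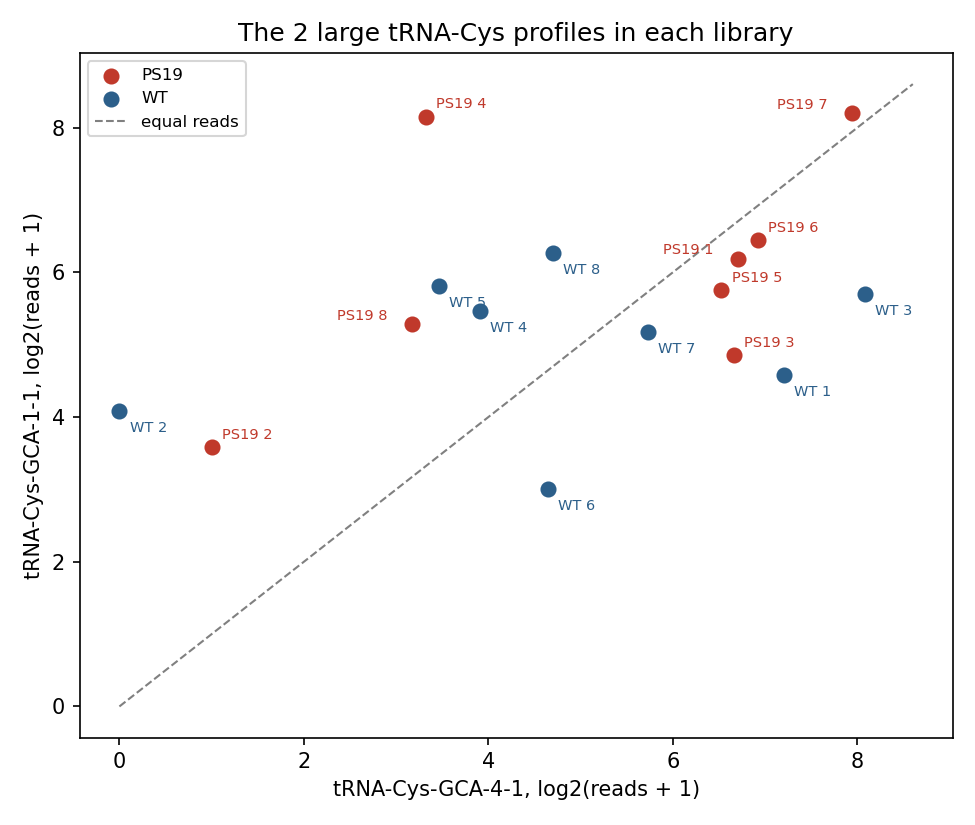
Reads of GCA-4-1 (x axis) and GCA-1-1 (y axis) as log2(reads + 1), with 1 point per library, PS19 in red and WT in blue, and a dashed line at equal reads. In each genotype 4 of 8 libraries lie above the line, and the farthest above it is PS19 replicate 4.

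The other entries had fewer reads, and 12 of the 59 entries had under 100 in all. GCA-15-1 had 468 reads, of which 461 were in PS19. The PS19 libraries held 5, 0, 375, 3, 0, 2, 42 and 34 reads in replicates 1 to 8, and the WT libraries held 1 in replicate 3, 1 in replicate 4, 5 in replicate 5 and 0 in the other 5. PS19 replicate 3 alone held 80.1% of the reads, and 2 PS19 libraries had none, as did most WT libraries, so the groups overlapped at 0. The normalized counts were 74.3 ± 178 in PS19 (SD, n = 8), against 0.558 ± 0.813 in WT (SD, n = 8), and by this measure 5 of 8 PS19 libraries lay above every WT library. In tRNA RPM, PS19 replicates 1 and 4, at 0.0612 and 0.0368, lay below WT replicate 5, at 0.0689. The log2 fold change was 2.90 ± 0.905 (SE; limma, raw p = 0.00352, adjusted p = 0.829; exact permutation test, p = 0.0140). Leaving out each library in turn gave 2.10 to 3.38 with a raw p of at most 0.00866 by limma. Among the 10 libraries with the PS19 letter (8 PS19, 2 WT) it was 2.71 and did not pass (limma, raw p = 0.0879; exact permutation test, p = 0.267, where 0.0222 is the smallest p that 45 splits can give).

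GCA-18-1 and GCA-13-1 had like profiles, with a Pearson r of 0.99. GCA-18-1 had 29 reads in PS19 replicate 1, 20 in replicate 3, 1 in replicate 4 and 2 in replicate 7, and no more than 1 in any WT library. In 4 of 8 PS19 and 5 of 8 WT libraries it was at 0. Its log2 fold change was 1.50 ± 0.723 (SE; limma, raw p = 0.0478), while the exact permutation test gave p = 0.109. When each library was left out in turn, its fold change ranged from 0.97 to 1.75 and passed the threshold in 5 of 16 fits, those without PS19 replicate 2, 5, 6 or 8 or WT replicate 3. GCA-13-1 had the same reads as GCA-18-1 in every library but PS19 replicate 3, with 9 in place of 20, and its log2 fold change was 1.37 ± 0.677 (SE; limma, raw p = 0.0540; exact permutation test, p = 0.109). GCA-13-1 passed the raw threshold in 11 of 29 alternatives, among them DESeq2 (4.58, adjusted p = 0.0728) and edgeR.

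GCA-20-1 and GCA-27-1 were also highest in PS19 replicate 3, with 25 of 31 and 22 of 26 reads. GCA-21-1 had 10 reads, 9 of them in PS19, and a log2 fold change of 0.75 ± 0.376 (SE; limma, raw p = 0.0573; exact permutation test, p = 0.200). GCA-11-1 had 8 to 18 reads in PS19 replicates 1, 3, 5, 6 and 7, and at least 13 in WT replicates 3 and 6, with 3 or fewer in all other libraries. Its log2 fold change was 1.37 ± 0.739 (SE; limma, raw p = 0.0751; exact permutation test, p = 0.118). GCA-25-1 followed GCA-11-1 at a Pearson r of 0.89 and had equal reads in WT replicate 6, with 13 in each. The r with GCA-4-1 over the 16 libraries was 0.76 for GCA-11-1 and 0.62 for GCA-25-1. GCA-8-1 had 0 to 6 reads in PS19 and 0 to 17 in WT, where replicate 2 was highest, and a log2 fold change of 0.05 ± 0.660 (SE; limma, raw p = 0.941; exact permutation test, p = 0.941). GCA-16-1, GCA-19-1, GCA-22-1, GCA-23-1 and GCA-26-1 had 5 reads or fewer over all libraries, too few for a difference to be detectable at this depth.

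**Figure D4:**
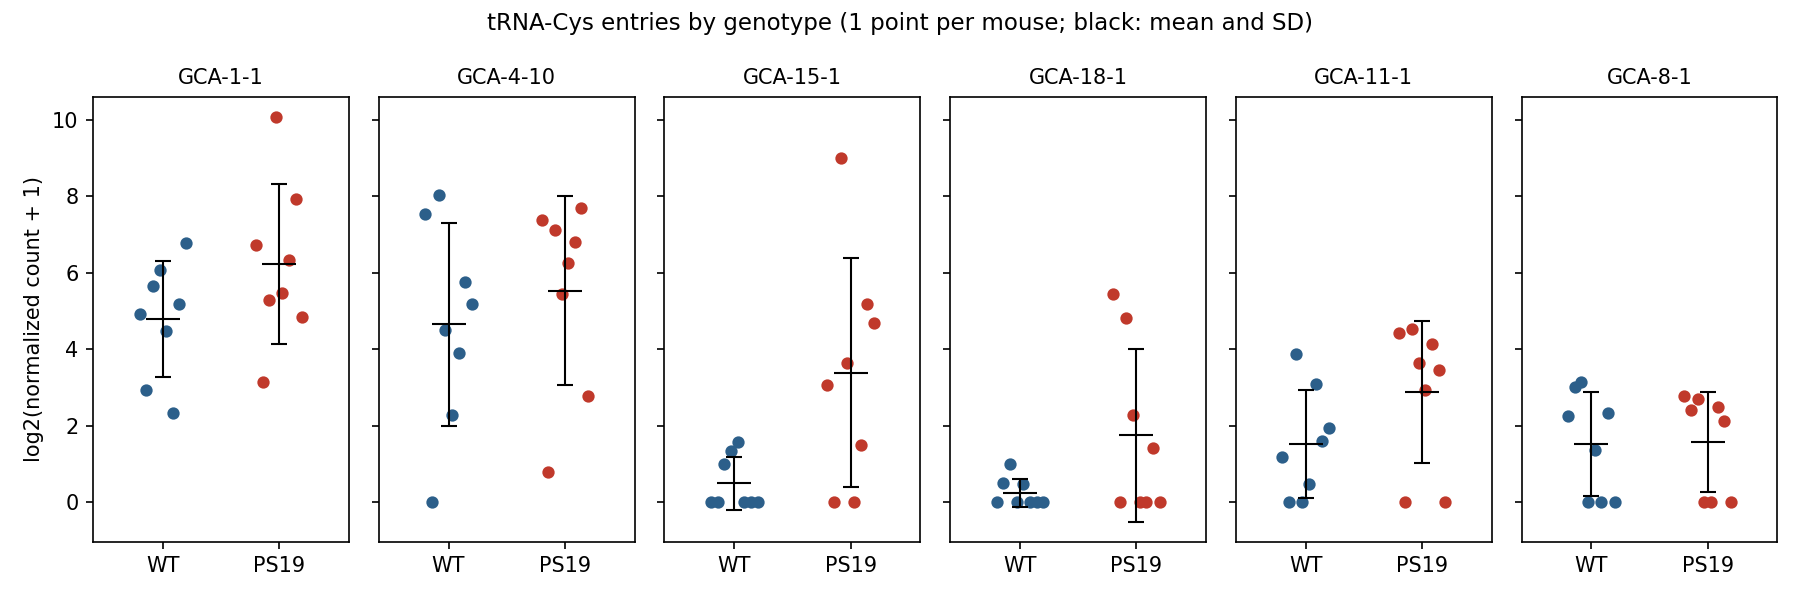
log2(normalized count + 1) of 6 tRNA-Cys entries in the 8 WT (blue) and 8 PS19 (red) libraries, with the mean and SD in black. The genotypes overlap in every panel, and for GCA-15-1 5 of 8 PS19 libraries lie above every WT library as normalized counts.

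Over the whole set, 2 of the 59 entries passed a raw p of 0.05 by limma, the threshold used in the study. These were GCA-15-1 and GCA-18-1, both higher in PS19, and 0 were lower. This is 3.39% of the entries, or 6.45% of the 31 profiles, against 4.85% of all 15159 ncRNAs, and 2.72% of all ncRNAs when higher values alone are counted. By the exact permutation test 1 entry, GCA-15-1, passed, against 3.96% of all ncRNAs. In this limma fit the share of tRNA-Cys entries called was thus near that of all ncRNAs, which did not hold under several alternatives given below. After Benjamini-Hochberg adjustment over all ncRNAs, 0 entries passed 0.05 and the smallest adjusted p by limma was 0.829, with 2 entries under 0.05 before adjustment. The count tests on the recovered reads differed here. DESeq2 gave an adjusted p under 0.05 to 2 entries, GCA-15-1 (log2 fold change 4.15, adjusted p = 0.0366) and GCA-18-1 (4.91, adjusted p = 0.0439), and no adjusted p to 10 entries. This is 3.39% of the entries, against 0.745% of all ncRNAs, where those without an adjusted p count as not passing. How many of all ncRNAs had none is not given here. The median tRNA-Cys entry had 1217 reads against 28 for all ncRNAs, so the 2 shares cannot be compared directly. edgeR gave an adjusted p under 0.05 to 3 entries, GCA-15-1 (6.16, adjusted p = 6.47e-08), GCA-18-1 (4.27, adjusted p = 0.00488) and GCA-13-1 (3.99, adjusted p = 0.0178), which is 5.08% of the entries, against 2.1% of all ncRNAs. These entries had most of their reads in PS19 replicates 1 and 3. The log2 fold change was positive for 56 entries and for 29 of the 31 profiles, with a median of 0.88 and a range of -0.12 to 2.90. The median was 0.51 over all tRNA entries, 0.40 over the 374 tRNA entries of other amino acids and -0.01 over all ncRNAs. The tRNA-Cys median itself was 0.21 without WT replicate 2 and 1.54 without PS19 replicate 2, and it was 0.37 with DESeq2, 0.07 with edgeR and -0.27 with the miRNA share as a covariate. Most of the positive entries belong to the 2 blocks of near-identical values, so they are not separate measurements, and the median describes this list only. Among the other tRNA entries, 29 of 374 (7.75%) passed a raw p of 0.05 by limma with a higher value in PS19 and 0 with a lower value, including 12 of 17 of tRNA-Ile, 8 of 9 of the initiator tRNA-iMet and 5 of 39 of tRNA-Ala, the family whose 5′ fragments begin with a run of guanines as those of tRNA-Cys do. The entries of tRNA-Ile, tRNA-iMet and tRNA-Ala formed 11, 3 and 31 distinct profiles, so these entries are not all separate measurements. 5 amino acid names had a higher median fold change than tRNA-Cys.

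The number of entries passing moved widely with the processing. Scaled by miRNA reads it was 11 (18.6% of the entries, against 7.46% of all ncRNAs in the same fit), with the 7 entries of isodecoders 1 to 3, GCA-11-1 and GCA-13-1 added, and scaled by tRNA reads it was 1 (1.69% against 2.84%). DESeq2 on the recovered reads gave 6 (10.2% against 5.42%) and edgeR gave 13 (22.0% against 15.1%). Among the 8 PS19 and 2 WT libraries with the PS19 letter it was 37 of 57 tested (64.9% against 4.62%), of which 36 were isodecoder 4 or like it. That fit compared PS19 with WT replicates 2 and 4 alone, which held 0 and 14 reads of GCA-4-10, whose log2 fold change was then 3.28 (limma, raw p = 0.0274; exact permutation test, p = 0.111). All of these calls were higher in PS19.

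**Figure D5:**
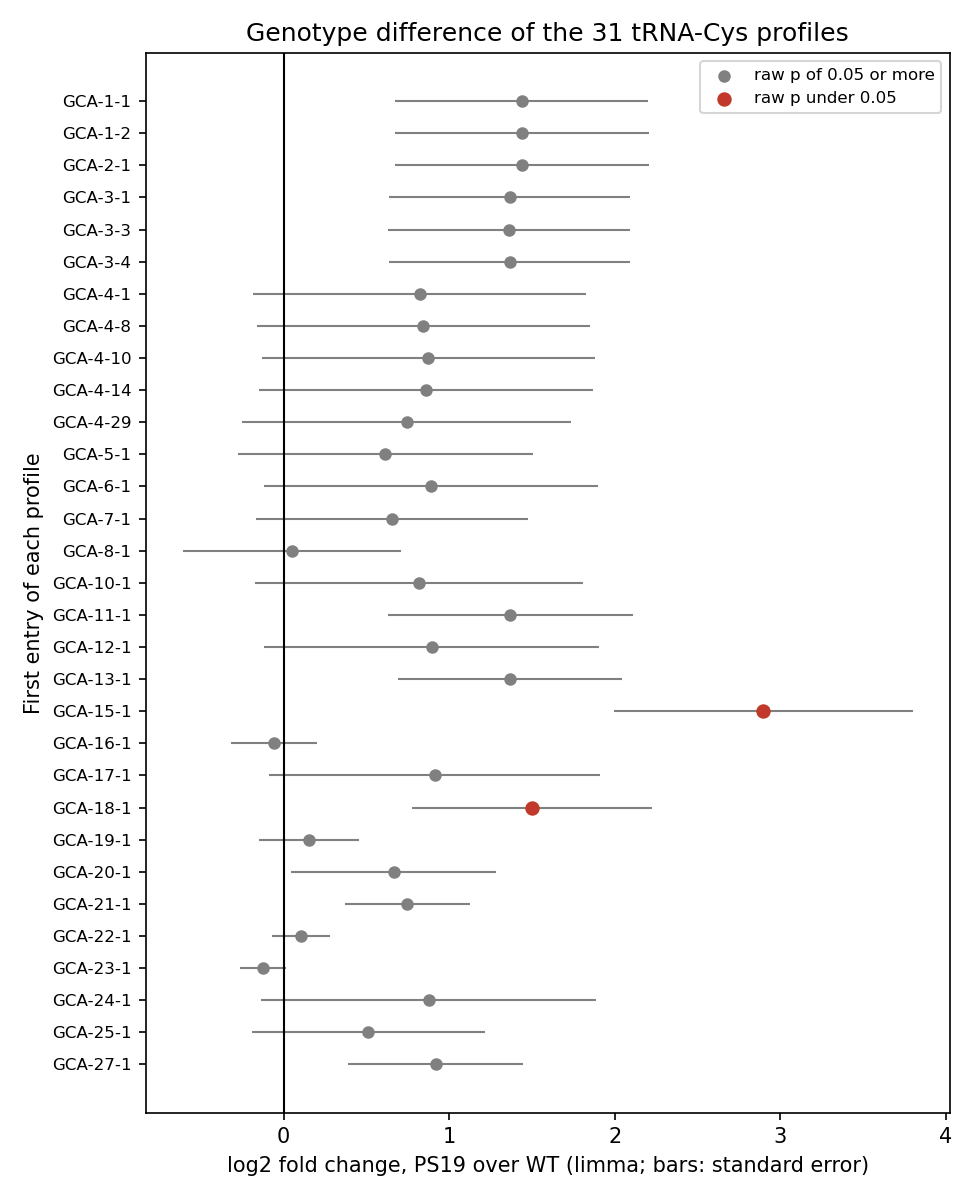
log2 fold change of PS19 over WT with its standard error, from limma on log2(normalized count + 1), for the 31 distinct tRNA-Cys profiles. GCA-15-1 and GCA-18-1 (red) had a raw p under 0.05, and 29 of the 31 points lie above 0.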

How the data were processed

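Plasma pEV small RNA of 8 PS19 and 8 WT mice was measured, with 1 library per mouse. Libraries were made with a NEBNext small RNA kit and sequenced from a single end. Per the labels and the methods, the authors aligned reads to mm10 with STAR 2.5.3a, assigned them to annotated ncRNAs with COMPSRA and used DESeq2 1.42.1. The deposited signal values are counts divided by the DESeq2 size factor of each library. The deposited table also holds the authors' own comparison (mean, log2 fold change, standard error, Wald statistic, p-value and adjusted p), which was not used. Whole reads were recovered by dividing by the value of 1 read, and 100% of the values were whole within 1e-06.

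The members, lists and tests were chosen with earlier results of these data known. Because the values are normalized, log2(normalized count + 1) was tested with limma 3.58.1 (lmFit, eBayes with a trend). The fit covered the 15159 ncRNAs of the table, each of which had 1 read or more, and results were called at a raw p under 0.05 and again after Benjamini-Hochberg adjustment. Each entry also had a two-sided exact permutation test over all 12870 ways to assign 8 of the 16 libraries. The alternatives included edgeR 4.0.16 and DESeq2 1.42.0 on the recovered reads, which gave 2295 and 822 of all ncRNAs a raw p under 0.05. Other scalings, filters, array weights, left-out libraries and 1 entry per identical set were also tried. The scripts were tested on simulated data. The entries described by name are, with 1 kept per identical set, the 10 with the highest mean, the 10 with the smallest limma p and the highest of each isodecoder with several entries. Further entries were named after their values were seen, as edges of a range or as low entries. The miRNA share as a covariate and the fit without PS19 replicates 1 and 3 together were added after the data had been seen. Same-numbered libraries did not deviate together. Gene positions are from RefSeq on GRCm38.p6, counted from 1. Fragment sequences and read positions along the tRNA were not analysed here. R 4.3.3, Python 3.11.15, numpy 2.4.6, pandas 2.3.3, scipy 1.17.1 and matplotlib 3.10.9 were used.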

Additional observations from a re-analysis of the deposited data

Results flagged for a closer look

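In 32 groups of 8 libraries, formed by the 15 entries described by name and the summed share in each genotype, 12 held a library whose gap to its neighbour, as a share of the range, was over Dixon's critical value. That value flags about 1 in 20 groups only when values are normally distributed. The values here were not logged and some groups held mostly zeros, so the rate by chance is not known for them. Entries of a block had near-identical values, so the 12 cannot be counted as independent. In PS19, replicate 4 stood apart for GCA-1-1 (1085 normalized counts), GCA-1-2 (1089), GCA-2-1 (1089), GCA-3-1 (1089), GCA-3-3 (1089) and GCA-3-4 (1085), each time above 244.8 in the next library. That library had the lowest size factor, 0.261, and as reads it was not the highest (283 for GCA-1-1, against 293 in PS19 replicate 7). PS19 replicate 3 stood apart for GCA-15-1 with 514 normalized counts, above 35.1 in the next. PS19 replicate 1 stood apart for GCA-13-1 with 42.6, above 12.3.

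In WT, replicate 3 stood apart for GCA-13-1 and GCA-18-1 with 0.976 normalized counts each, and replicate 5 for GCA-21-1 with 0.389, and each of these values is 1 read. The summed tRNA-Cys share of PS19 replicate 7, 163 tRNA RPM, stood apart from the next PS19 library, 66.7.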

How the results depend on the processing

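The number of tRNA-Cys entries with a raw p under 0.05, 2 by limma, was 1 with a pseudocount of 0.1, a mean normalized count of at least 10, total or tRNA reads for scaling, array weights, the miRNA share as a covariate, or without PS19 replicates 1 and 3 together. At a mean of at least 10 this was 2.17% of the entries tested, against 8.76% of all ncRNAs. In the other fits it was 1.69%, against 5.02% (pseudocount), 2.91% (total reads) and 2.84% (tRNA reads). The share of all ncRNAs was 4.46% with array weights, 4.99% with the miRNA share and 3.15% without the 2 replicates. The number passing was 11 scaled by miRNA reads, 11 with the replicate block (18.6% of the entries, against 4.52% of all ncRNAs), 6 of 29 with 1 entry per identical set (20.7% against 5.66%, where 2 of the 31 profiles, of 1 and 2 reads, equalled those of circRNAs, which were kept in their place), 6 with DESeq2, 13 with edgeR and 37 in the libraries with the PS19 letter. Leaving out each library gave 1 to 12, with 12 without PS19 replicate 2 or 8 (20.3% each, against 5.40% and 5.21% of all ncRNAs), 8 without WT replicate 8 (13.6% against 4.52%), 4 without PS19 replicate 5, PS19 replicate 6 or WT replicate 3, and 1 or 2 otherwise. The 4 entries were 6.78% without PS19 replicate 5 or 6, against 5.61% and 5.40%, and 7.02% without WT replicate 3, against 4.45%. The 1 or 2 entries were 1.69% or 3.39%, against 3.79% to 5.31% of all ncRNAs. The causes were not tested. The replicate numbers did not pair the mice: pair correlations ran from -0.114 to 0.194, and 3 of 16 libraries correlated best with their own number. GCA-15-1 kept a raw p under 0.05 in 29 of 30 alternatives, with a log2 fold change of 2.02 to 6.16, and GCA-18-1 in 11 of 29, with 0.37 to 4.91. With the miRNA share as a covariate the log2 fold change turned to -0.27 for GCA-4-10, -0.29 for GCA-5-1, -0.079 for GCA-7-1, -0.28 for GCA-10-1 and -0.26 for GCA-12-1. The median log2 fold change of all ncRNAs, -0.01, moved to -0.11 with total reads, -0.12 with tRNA reads, 0.29 with miRNA reads, 0.10 with DESeq2 and -0.15 with edgeR. The tRNA-Cys median, 0.88, was 0.33 with array weights, 0.29 without PS19 replicates 1 and 3, 1.66 scaled by miRNA reads and 3.22 with the PS19 letter. The 31 identical sets became 20 within 1 read, 20 within 1% and 18 at r above 0.99. The difference in summed share stayed positive in all its alternatives, from 8.86 to 34.1 when 1 library was left out. With 1 entry per identical set among all tRNA entries, the mean share was 27.9 tRNA RPM in PS19 and 13.3 in WT.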
